A study of Mus musculus with 9 samples.

Results

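Small nucleolar RNAs (snoRNAs) are short RNAs of the nucleolus, most of them cut from the introns of a longer host transcript after splicing. Box C/D snoRNAs carry short C and D sequence boxes, bind fibrillarin and guide the methylation of ribosomal and spliceosomal RNA, while box H/ACA snoRNAs end in an ACA box, bind dyskerin and guide pseudouridylation. In the brain, a group of C/D snoRNAs without a known ribosomal RNA target is made from long imprinted noncoding transcripts, among them Rian in the Dlk1-Dio3 region and Snhg14 in the mouse counterpart of the Prader-Willi region. The 74 genes described here are those of the snoRNA biotype whose mean over 9 hippocampal RNA-seq libraries was at least 1 FPKM (fragments per kilobase of gene, scaled to a fixed library size). They are 74 of 1507 snoRNA genes and of 54532 genes in all, and 320 of the 1507 had at least 1 read in any library.

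The libraries came from the hippocampus of C57BL/6 mice labelled male, bought at 6 to 8 weeks of age, in 3 groups of 3. Con mice received a standard diet and HMD mice a high-methionine diet, both for 8 weeks, and Bet+HMD mice received the high-methionine diet for 8 weeks and then 2.5% (w/v) betaine in the drinking water for 2 weeks. The series description asks how betaine, which lowers homocysteine, acts on the cognitive impairment of mice in which methionine has raised it. The labels of the Bet+HMD samples count the strain name upward from C57BL/6, the methods of the paper, which covers Con and HMD, describe female mice, and in these data Xist lay between 0 and 0.0449 FPKM and the Y-linked gene Ddx3y between 12.7 and 21.2 FPKM in the 9 libraries. Con and HMD were first deposited without Bet+HMD, so betaine cannot be told apart from any difference in when or how these libraries were made. As described, the 2 weeks of betaine came after the diet, so betaine cannot be told apart from a later age at sampling either. Each library held 16031464 to 18291952 reads assigned to genes.

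The 74 genes were chosen by their measured level, and that choice weighs on every count below. Of the 74, 37 reached a mean of 1 FPKM in Con, 40 in HMD and 71 in Bet+HMD, and 24 reached it in Bet+HMD alone, so these 24 had to be higher there. Just inside the threshold lay Gm22027 at 1.07 FPKM, Gm24091 at 1.01 FPKM and Gm26202 at 1.00 FPKM, with 15, 7 and 7 reads in the 3 Bet+HMD libraries together. Just outside lay Gm25809 at 0.9997 FPKM, Gm25588 at 0.908 FPKM and Gm22581 at 0.896 FPKM. Because the genes are 65 to 246 bases long (median 98), few reads make a high FPKM. Only 8 of the 74 averaged at least 10 reads per library and 50 averaged under 5.

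By name 17 of the 74 are C/D and 6 are H/ACA genes, and the other 51 carry a gene model name. Their sequences were read from the GENCODE M21 transcripts (GRCm38), in which the 74 have the same coordinates as in the deposited table. The letters TGATG within the first 25 bases (C box) together with CTGA within the last 25 (D box) were found in 32 of them, ACA lying 2 to 4 bases from the 3′ end in 27, all 3 in 1, and neither pattern in 14. Over the 1507 snoRNA genes the same counts were 352, 645, 10 and 500. The search covered the gene strand only, and a missing match says only that these exact letters are not in that window.

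The sequences shown first are those of Rian and Snhg14, because these 2 imprinted noncoding hosts hold 4 of the 74 genes each, among them Gm23600, the gene with the largest fitted rise against HMD of those named. They are printed 5′ to 3′ on the gene's strand, with the C and D box letters in capitals. The Rian genes lie on the plus strand (GRCm38) at chr12:109643748-109643818, chr12:109631074-109631148, chr12:109656345-109656416 and chr12:109657125-109657196, in the order printed, inside the host at chr12:109603940-109661716.
Gm23600: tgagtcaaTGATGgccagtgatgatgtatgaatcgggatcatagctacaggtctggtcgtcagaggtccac
Gm24564: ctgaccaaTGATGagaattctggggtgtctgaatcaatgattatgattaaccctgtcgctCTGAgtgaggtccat
DQ267102: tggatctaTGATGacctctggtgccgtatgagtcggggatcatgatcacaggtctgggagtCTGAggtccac
Gm25357: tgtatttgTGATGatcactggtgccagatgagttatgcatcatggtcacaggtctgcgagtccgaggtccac
These 4 share 57.3% to 80.6% of their bases, with DQ267102 and Gm25357 the closest pair, and none has a copy of 95% identity or more elsewhere in the genome's snoRNA genes.

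The Snhg14 genes Gm24966, Gm26498, Gm24657 and Gm26230 lie on the minus strand at chr7:59344073-59344151, chr7:59386081-59386159, chr7:59366366-59366444 and chr7:59368236-59368314. Gm24966 differs from the other 3 at 11 of 79 bases, Gm24657 differs from Gm26498 at 1 base, and Gm26230 is identical to Gm26498.
Gm24966: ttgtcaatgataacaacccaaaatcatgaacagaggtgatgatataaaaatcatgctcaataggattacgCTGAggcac
Gm26498: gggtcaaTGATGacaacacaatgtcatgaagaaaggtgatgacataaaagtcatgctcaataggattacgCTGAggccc
All 4 hold the 18 bases atgctcaataggattacg at positions 53 to 70, counted from the 5′ end, and the reverse complement of this stretch is present in transcripts of Htr2c, the serotonin 2C receptor. Such a match of 18 bases was found in 105 of the 1507 snoRNA genes, and the 105 all lie in Snhg14. Of all snoRNA genes, 208 lie in Snhg14 and 25 of them had a read, against 12 in Rian of which 4 had one. Gm26498 and Gm26230 have 86 copies of at least 95% identity each and Gm24657 has 107. How reads that fit several copies were assigned is not stated, so the values of these 3 are uncertain as to which copy they come from, and Gm24966 has no such copy.

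The 2 snoRNA genes of highest level lie 685 bases apart in introns of Tsr1, a ribosome maturation factor, on the plus strand at chr11:74905424-74905516 and chr11:74906109-74906199. They are shown because they are the highest members and because their estimates in Bet+HMD were lower, opposite to those of Gm23600 and Gm24966. Only Snord91a was called lower. They share 68.8% of their bases.
Snord91a: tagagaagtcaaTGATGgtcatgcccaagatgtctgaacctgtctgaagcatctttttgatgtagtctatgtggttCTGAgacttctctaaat
Gm22771: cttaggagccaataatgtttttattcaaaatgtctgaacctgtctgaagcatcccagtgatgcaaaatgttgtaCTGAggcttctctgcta
The H/ACA-type gene of highest level, Gm25129, lies in an intron of Snhg11 on the plus strand at chr2:158379534-158379666, here with its ACA in capitals.
Gm25129: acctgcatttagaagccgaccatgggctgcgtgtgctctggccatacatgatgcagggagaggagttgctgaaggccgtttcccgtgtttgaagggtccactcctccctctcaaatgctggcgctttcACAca

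Relating the genes to hosts by coordinates, 61 of the 74 lay within a longer gene on the same strand, in 47 distinct hosts. Of the 61, 58 were intronic in every host transcript that spans them, and 3 lay within the host gene but within no single transcript of it. Ribosomal protein genes hosted 12, other protein-coding genes 35 and noncoding host genes 14 (Snhg11, which the table lists as protein-coding, was counted with the last). Of the remaining 13, 8 lay only opposite to a gene on the other strand and 5 lay in no gene. Genes with C and D boxes lay a median of 182 bases from the next host exon (29 genes) and those with an ACA box 1105 bases (19 genes). The study's read pairs are 150 bases at each end, longer than most of these genes, so a read from an unspliced host intron and one from the mature snoRNA cannot be told apart here, and whether strand was used in counting is not stated.

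Most snoRNA genes were listed at a lower level per length than their hosts. Across the 61 pairs the correlation of log2(FPKM + 1) between snoRNA gene and host was 0.10 (Pearson's r) in Con, 0.09 in HMD and 0.18 in Bet+HMD, given as a description across genes that share libraries. In Con, HMD and Bet+HMD the median host had 12.3, 11.4 and 11.5 FPKM, and the median hosted snoRNA gene at 0.949, 1.08 and 3.67 FPKM. The snoRNA gene exceeded its host in 6, 7 and 8 of the 61 pairs.

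Reads of snoRNA genes were about equal in Con and HMD and higher in Bet+HMD. The 74 genes together took 297 to 416 reads per library in Con, 352 to 529 in HMD and 750 to 838 in Bet+HMD. As RPM (reads per 1000000 assigned reads) this was 21.2 ± 2.91 (SD, n = 3), 24.99 ± 6.99 and 47.0 ± 2.78. Over all 1507 snoRNA genes, which were not selected on their level, the values were 25.03 ± 2.82, 28.9 ± 6.81 and 61.8 ± 4.53 RPM, and the number of these genes with a read was 57 to 92, 67 to 77 and 163 to 194. In both sums the Bet+HMD libraries lay above every library of the other groups, and Con and HMD overlapped. Without the 2 Tsr1 genes the sums were 11.5 ± 1.35, 13.8 ± 2.79 and 42.0 ± 2.36, and the 8 genes in Rian and Snhg14 had 1.74 ± 0.573, 1.503 ± 0.510 and 12.1 ± 1.22 RPM. Over the 220 snoRNA genes of these 2 hosts, whatever their level, the sums were 1.85 ± 0.703, 1.65 ± 0.588 and 12.98 ± 0.895 RPM.

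**Figure D1:**
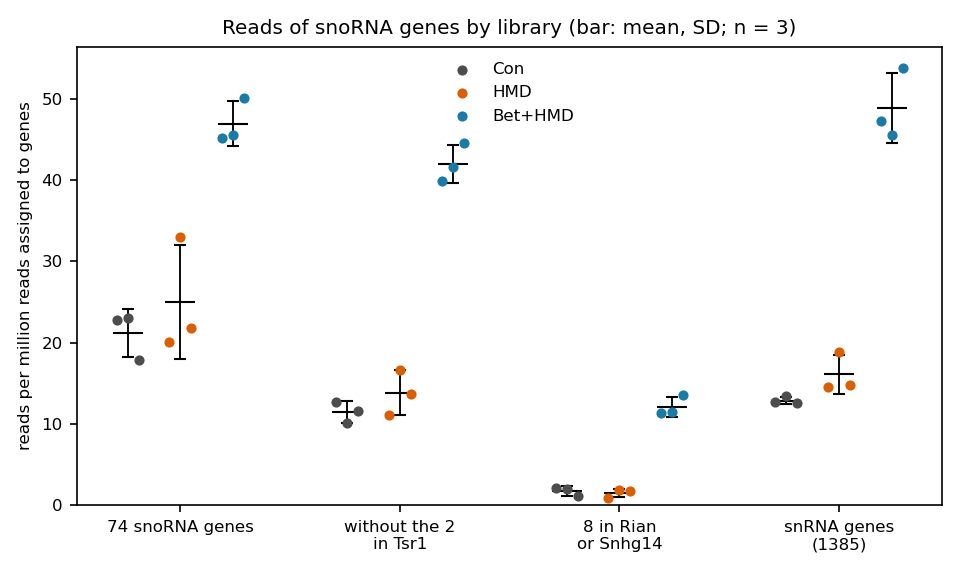
Library-scaled reads of each set, in RPM, reads per 1000000 assigned reads (y axis, linear, from 0) of the 74 snoRNA genes, of these without the 2 in Tsr1, of the 8 in Rian or Snhg14 and of the 1385 snRNA genes (x axis). Each dot is a library, and the bar and whiskers are the mean and SD of 3; the Bet+HMD dots lie above every Con and HMD dot in each of the 4 sets.

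Other nuclear and unspliced RNAs moved with this difference, and their part in it was not tested. Small nuclear RNA genes took 12.9 ± 0.475, 16.1 ± 2.45 and 48.9 ± 4.30 RPM in Con, HMD and Bet+HMD, small Cajal body RNAs 1.42, 0.781 and 4.42, and sense-intronic transcripts 363, 407 and 573. The summed FPKM of 6 nuclear-retained noncoding RNAs (Malat1, Neat1, Meg3, Miat, Kcnq1ot1 and Xist) ran from 33.0 to 66.7 in Con, from 44.6 to 65.0 in HMD and from 521 to 551 in Bet+HMD. Ribosomal RNA genes took the opposite course, at 632 ± 437, 750 ± 303 and 44.8 ± 7.49 RPM, and 25315 to 25663 genes had a read in the Bet+HMD libraries against 20816 to 23272 in the others. Summed hippocampus markers lay at 228 to 248, 187 to 225 and 174 to 179 FPKM, astrocyte markers at 228 to 235, 227 to 248 and 195 to 196, microglia markers at 90.8 to 106, 86.3 to 98.1 and 71.8 to 72.3, and oligodendrocyte markers at 605 to 1032, 676 to 923 and 681 to 689. Neuron markers stood at 679 to 780, 692 to 806 and 682 to 695 FPKM, thalamus at 13.2 to 15.9, 22.3 to 61.0 and 17.3 to 18.2, striatum at 17.3 to 27.4, 19.1 to 30.9 and 22.9 to 26.1, choroid plexus at 775 to 3215, 874 to 2587 and 942 to 1217, and red cell markers at 99.8 to 148, 149 to 233 and 72.2 to 122. No marker of any list was at 0 in all 9 libraries. In whole tissue, fewer cells that make an RNA and less of that RNA per cell cannot be told apart.

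The high-methionine diet alone was not accompanied by a detectable difference in any snoRNA gene. Of the 74, 43 had a mean of at least 1 FPKM over Con and HMD and were tested, and none passed an adjusted p of 0.05 in limma, against a background of 0% of 13004 genes tested. At an unadjusted p under 0.05, limma gave 4 of the 43 (background 4.52%) and limma voom on the recovered reads 2, and voom called 0 after adjustment. Groups did not overlap for 2 of the 43 (background 9.61%). The median log2 fold change was 0.19, beside -0.01 over all genes tested, and it was 0.00 without Con replicate 2 or 3.

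By unadjusted p, the 3 genes with the lowest values among those with a higher estimate in HMD were Gm23301, Gm25658 and Gm24564. Gm23301, a C/D-type gene in Rpl17, had 0 reads in all 3 Con libraries and 1, 4 and 6 in HMD (adjusted p = 0.747 in limma), which is a mean of 3.46 FPKM against a floor of 2.70 FPKM that 3 reads per library would give. Gm25658, in the noncoding gene Gm10754, had 3, 0 and 2 reads in Con and 2, 10 and 7 in HMD (log2 fold change 1.16, SE 0.46, adjusted p = 0.979). Among those with a lower estimate were DQ267102, Snord49a in the noncoding gene 2410006H16Rik, and Gm22858 in Wdr43. DQ267102 had 12, 5 and 2 reads in Con and 1, 0 and 0 in HMD, a ratio of 18.3 with an exact 95% counting interval of 2.91 to 762 (adjusted p = 0.75). Snord49a had 10, 2 and 3 reads against 0, 0 and 3 (adjusted p = 0.979), and Gm22858 had 2, 6 and 0 against 0 in every HMD library. Intervals and floors of this kind cover counting error only.

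In Bet+HMD against HMD, 71 of the 74 were tested and 30 (42.3%) were called higher in limma, against 22.8% of all 13672 genes tested. Only 2 (2.82%) were called lower, against a background of 25.5%. By voom on the recovered reads 23 were higher and 1 lower, against 24.3% and 27.2% of all genes. Replicates did not overlap for 28 higher and 3 lower genes, against 28.3% and 31.8% of all genes. The median log2 fold change over the 71 was 1.36, or 1.17 with the 5 genes without a read in a whole group set at their bound, beside -0.03 over all genes. Of the 30 risers, 9 had at least 10 reads in each Bet+HMD library and 21 had fewer in at least 1. In the same fit 35 of 70 small nuclear RNA genes were called higher and 1 lower (median log2 fold change 1.35). For microRNA genes it was 72 of 124 higher and 2 lower (1.61), and for sense-intronic transcripts 25 of 33 and 1 (0.93). Of 6 small Cajal body RNA genes 4 rose and 0 fell. Over Con and HMD the same filter passed 25 small nuclear RNA, 57 microRNA and 15 sense-intronic genes. Part of these classes may thus have entered through their level in Bet+HMD, and their risers were not split by this. Under this filter the excess of higher calls over all genes was not confined to snoRNA genes.

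The selection of the 74 carries part of their counts. Of the 24 genes that reached 1 FPKM in Bet+HMD alone, 17 were among the 30 risers, while 13 of the 47 others tested rose and 2 fell. When snoRNA genes were instead selected on the 6 Con and HMD libraries, 44 were found (43 of them shared with the 74), and of the 41 tested 9 (22.0%) rose and 2 (4.88%) fell. That share of risers is close to the 22.8% of all genes, the share of genes that fell is below the 25.5%, and the median log2 fold change was 0.25. This second selection favours genes that are high in Con and HMD, the opposite of the first. The p-values of single genes below come after the first selection.

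Against Con the counts were of the same order, with the Bet+HMD libraries shared between both comparisons. Of 70 tested, 32 (45.7%) were called higher, against 19.4% of 13643 genes, and 1 (1.43%) lower, against 20.4%. Voom called 28 higher and 1 lower, against 20.5% and 21.6%, and replicates did not overlap for 30 higher and 1 lower, against 26.1% and 29.0%. The median log2 fold change was 1.36, or 1.06 with the 9 genes without a read in a whole group at their bound, beside -0.04 over all genes. Of the genes selected on Con and HMD alone, 11 of 40 (27.5%) rose and 1 fell. Of the 24 genes that reached 1 FPKM in Bet+HMD alone, 17 were among the 32 risers. Of the 46 others tested, 15 rose and 1 fell. Altogether 27 of the 74 rose in both comparisons, 1 fell in both, and 37 were called in neither. The matching shares over all genes were not counted, so these counts over both comparisons are a description only. Against Con, 40 of 69 small nuclear RNA genes were called higher and 0 lower (median log2 fold change 1.43). For microRNA genes it was 64 of 121 higher and 1 lower (1.55), and for sense-intronic transcripts 25 of 30 and 1 (1.19). Of 7 small Cajal body RNA genes 4 rose and 0 fell. These classes were not split by entry through Bet+HMD either.

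**Figure D2:**
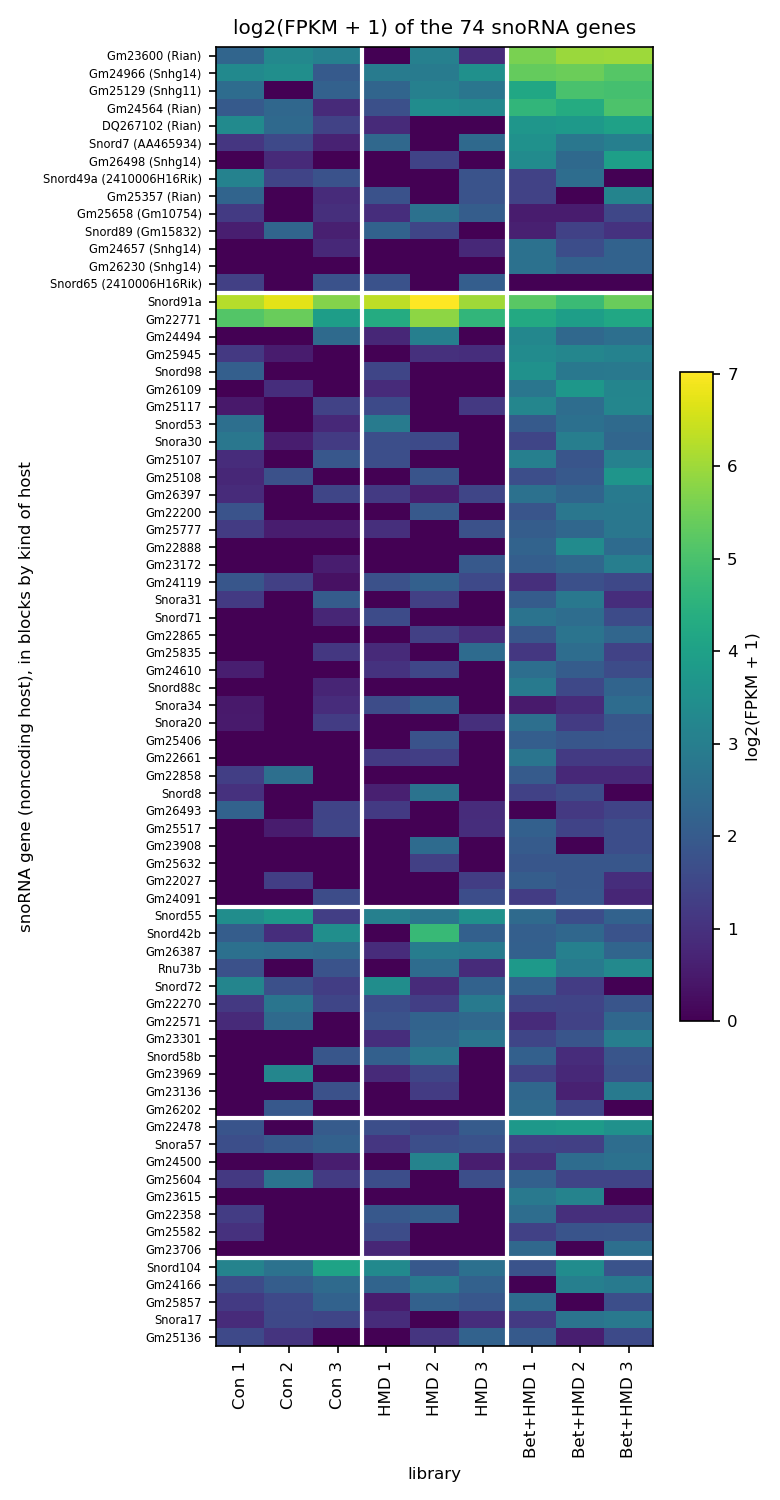
log2(FPKM + 1) (colour scale, 0 to 7) of each of the 74 snoRNA genes (rows, with noncoding host genes in brackets) in the 9 libraries (columns). White lines part the groups and the kinds of host, from top to bottom noncoding gene, other protein-coding gene, ribosomal protein gene, opposite strand only and no gene. Of the 74, 10 had no read in any Con library, 6 in any HMD library and 1 in any Bet+HMD library.

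Among the named genes, the largest rise against HMD was in Rian. Gm23600, the highest of them, had 5, 10 and 9 reads in Con, 0, 8 and 1 in HMD and 59, 78 and 77 in Bet+HMD, or 6.67 ± 2.48, 2.73 ± 4.03 and 57.4 ± 8.30 FPKM (SD, n = 3). Every Bet+HMD library lay above every other library. Its log2 fold change on the log2(FPKM + 1) scale was 4.54 (SE 0.69, adjusted p = 0.00175 in limma) against HMD and 2.98 (SE 0.26, adjusted p = 0.000442) against Con.

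Gm24564 had 4, 5 and 1 reads in Con, 3, 11 and 11 in HMD and 31, 25 and 42 in Bet+HMD, again without overlap. It rose by 1.86 (SE 0.44, adjusted p = 0.0109) against HMD and 2.94 (SE 0.39, adjusted p = 0.00184) against Con. DQ267102 had 15, 16 and 19 reads in Bet+HMD, 50 in all, against the single read of the 3 HMD libraries, a ratio of 47.2 with an exact 95% counting interval of 8.1 to 1903. Against Con its rise was 1.44 (SE 0.44, adjusted p = 0.0391), but voom gave an adjusted p of 0.0631 and the fit without a filter on low values 0.0874. This call against Con was also lost without Con replicate 2 (log2 fold change 1.45), and without Bet+HMD replicate 1 (1.51), 2 (1.48) or 3 (1.35), while without Con replicate 3 the value fell to 0.95. Gm25357, the fourth, was not called, with 5, 0 and 1 reads in Con, 3, 0 and 3 in HMD and 2, 0 and 10 in Bet+HMD. The host Rian itself rose from 24.5 ± 2.54 FPKM in HMD to 39.3 ± 1.57 FPKM (log2 fold change 0.67, SE 0.09, adjusted p = 0.000946), and the estimates of the 3 called genes lay above that of their host, a difference that was not tested.

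Of the 4 genes of Snhg14, Gm24966 reached 1 FPKM in every group, and the other 3 are among the 24 that entered through Bet+HMD alone. Gm24966 had 13, 13 and 4 reads in Con, 9, 8 and 14 in HMD and 55, 60 and 48 in Bet+HMD, or 7.40 ± 3.88, 7.89 ± 2.26 and 39.3 ± 4.07 FPKM. It rose by 2.21 (SE 0.17, adjusted p = 0.000134) against HMD and by 2.39 (SE 0.38, adjusted p = 0.0033) against Con. Gm26498 had 13, 6 and 20 reads in Bet+HMD, against 1 read in the 3 Con libraries together and 2 in the HMD ones. Gm24657 had 7, 3 and 5 reads in Bet+HMD and 1 read in each of the other groups. The identical copy Gm26230 had 7, 5 and 5 reads in Bet+HMD and none in the other 6 libraries. The reads of these 3 genes are given without a test. Snhg14 rose from 3.49 ± 1.02 FPKM in HMD to 6.11 ± 0.751 FPKM (log2 fold change 0.68, SE 0.16, adjusted p = 0.0124).

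Gm25129 and its host Snhg11 both rose. Gm25129 had 11, 0 and 8 reads in Con, 9, 15 and 13 in HMD and 40, 73 and 69 in Bet+HMD, without overlap of Bet+HMD with either group. The rise was 2.01 (SE 0.26, adjusted p = 0.00093) against HMD and 3.16 (SE 0.63, adjusted p = 0.0083) against Con. Snhg11 rose from 43.0 ± 10.5 FPKM in HMD to 348.5 ± 11.9 FPKM (log2 fold change 3.02, SE 0.17, adjusted p = 4.63e-05), so the estimate of the snoRNA gene minus that of its host was -1.01 in this comparison and -0.10 against Con.

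**Figure D3:**
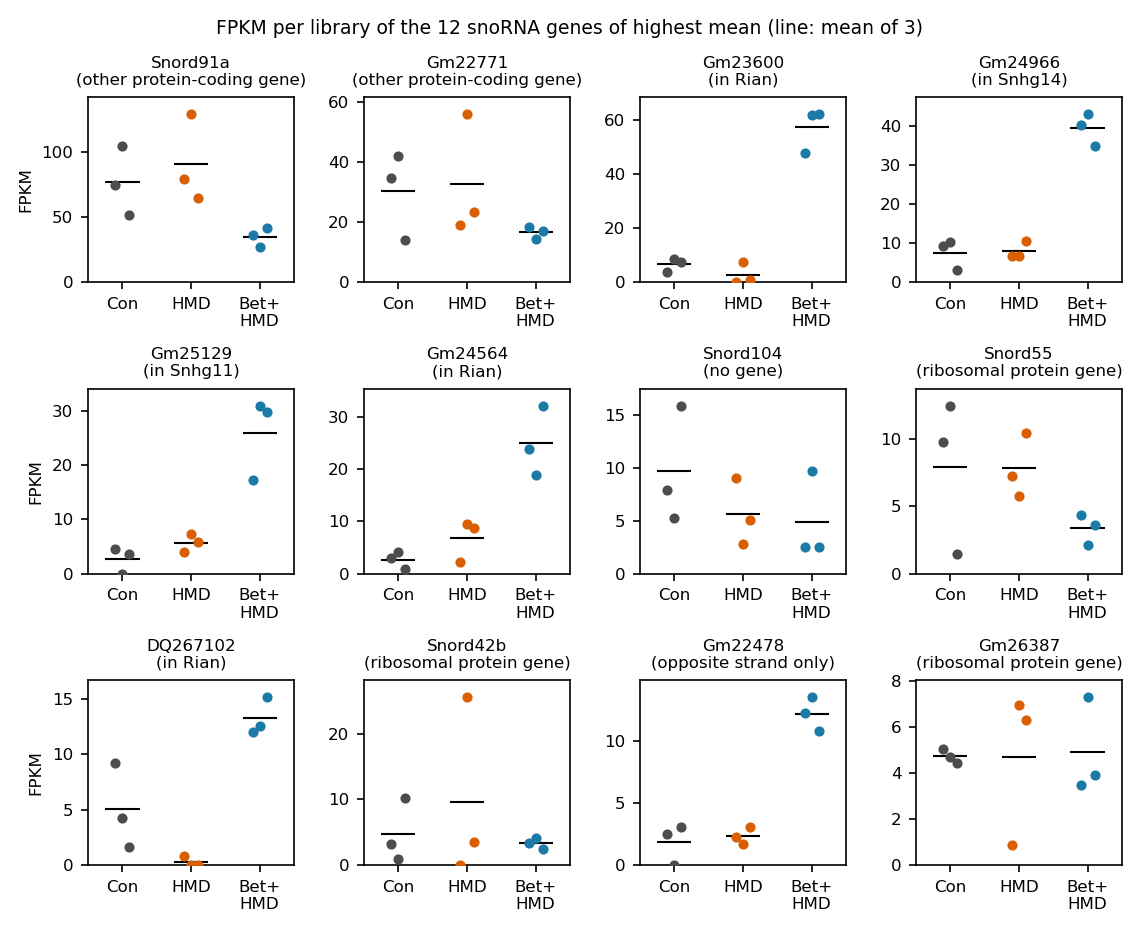
FPKM (y axes, linear, each from 0 to its own maximum) of the 12 snoRNA genes of highest mean in the 9 libraries, by group (x axes). Brackets give the noncoding host or the kind of host, dots are libraries and lines are means of 3; Gm23600, Gm24966, Gm25129, Gm24564, DQ267102 and Gm22478 are higher in every Bet+HMD library than in any other, and Snord91a is lower in every one.

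Outside the noncoding hosts, the rule for named genes added Gm25945, Gm25117 and Gm22478. Gm25945, an ACA-type gene in Khdc4, had 3, 1 and 0 reads in Con, 0, 2 and 2 in HMD and 22, 20 and 18 in Bet+HMD. It is among the 24, so its means of 0.562, 0.615 and 8.47 FPKM are given without a test. Khdc4, which codes for an RNA-binding protein, itself rose from 6.55 ± 0.286 FPKM in HMD to 11.5 ± 0.158 FPKM. Gm25117, of the same type in Nap1l1, a nucleosome assembly protein gene, had 1, 0 and 4 reads in Con, 5, 0 and 3 in HMD and 21, 12 and 21 in Bet+HMD. It rose by 2.08 (SE 0.40, adjusted p = 0.00495) against HMD, while Nap1l1 did not pass the test (log2 fold change 0.08, adjusted p = 0.424). Gm22478 lies opposite to Snrnp70, the gene of a U1 particle protein, at chr7:45388531-45388684 (plus strand). It had 7, 0 and 8 reads in Con, 6, 4 and 8 in HMD and 33, 37 and 29 in Bet+HMD, and rose by 2.00 (SE 0.16, adjusted p = 0.000139) against HMD and 2.45 (SE 0.50, adjusted p = 0.00885) against Con, a call lost with a pseudocount of 0.1 (adjusted p = 0.0519). Neither box pattern was found in it, and without strand its reads could not be told from those of Snrnp70.

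Both Tsr1 genes had lower estimates in Bet+HMD, and only Snord91a was called. Snord91a, the highest snoRNA gene of the table, had 126, 158 and 82 reads in Con, 128, 184 and 101 in HMD and 59, 44 and 67 in Bet+HMD, or 77.1 ± 26.7, 90.9 ± 33.9 and 34.9 ± 7.45 FPKM. Each Bet+HMD library lay below each of the other 6. Its log2 fold change was -1.32 (SE 0.26, adjusted p = 0.0058) against HMD and -1.09 (SE 0.27, adjusted p = 0.0191) against Con. The call against Con was lost without Con replicate 1 (-1.08), Bet+HMD replicate 1 (-1.13) or Bet+HMD replicate 2 (-0.91), and under quantile normalization (-0.77). Gm22771, its neighbour, had 57, 62 and 22 reads in Con, 30, 78 and 36 in HMD and 29, 23 and 27 in Bet+HMD and did not pass the test against HMD (log2 fold change -0.79, SE 0.36, adjusted p = 0.105) or Con (adjusted p = 0.17). It passed without HMD replicate 1 (-1.09 against HMD) and without Con replicate 3 (-1.16 against Con). Tsr1 itself stood at 10.7 ± 0.563, 11.3 ± 1.35 and 10.3 ± 0.505 FPKM and was not called (log2 fold change -0.12, adjusted p = 0.34 against HMD).

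Among the snoRNA genes of ribosomal protein hosts, 1 of 12 rose and 1 fell against HMD, and 2 of 12 rose and 0 fell against Con, with medians of 0.06 and 0.34. Over all genes 22.8% rose and 25.5% fell against HMD, and 19.4% and 20.4% against Con. Of the 8 hosts, 6 fell and 0 rose in each comparison, with medians of -0.60 and -0.98. The riser in both was Rnu73b in Rps3a1, with 3, 0 and 3 reads in Con, 0, 5 and 1 in HMD and 16, 8 and 11 in Bet+HMD, chosen for mention after its values were seen. Rps3a1 fell from 334 ± 36.8 FPKM in HMD to 162 ± 20.8 FPKM.

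Snord55 had 14, 16 and 2 reads in Con, 10, 7 and 14 in HMD and 6, 3 and 5 in Bet+HMD, and fell by 1.01 on the log2 scale (SE 0.25, adjusted p = 0.0128) against HMD. That call was lost with voom (adjusted p = 0.132) and with all 3 groups in 1 fit (adjusted p = 0.169), and against Con it was not called (adjusted p = 0.379) unless Con replicate 3 was left out (-1.50).

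Rpl17 hosts 3 of the genes and fell from 186 ± 15.5 FPKM in HMD to 42.1 ± 16.0 FPKM (log2 fold change -2.18, SE 0.24, adjusted p = 0.000441). Of its snoRNA genes only Gm23301 was called, and only against Con, where it had 0 reads and in Bet+HMD 2, 3 and 8. Without a read in Con, Gm23301 entered that fit through Bet+HMD alone, so its direction was fixed. Its mean of 3.82 FPKM in Bet+HMD was 1.41 times the floor of 2.70 FPKM in Con. Snord58b had 0, 0 and 3 reads in Con, 4, 6 and 0 in HMD and 4, 1 and 3 in Bet+HMD, and Gm26202, one of the 24 that entered through Bet+HMD alone, had 0, 3 and 0, then 0 in HMD, then 5, 2 and 0. A single library decided Snord58b, which passed against Con without Con replicate 3 (1.64), the only Con library in which it had reads. The reads of Gm26202 are given without a test.

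The other 3 genes of high mean were called in no comparison. Snord104, which lies in no gene, had 10, 6 and 19 reads in Con, 11, 3 and 6 in HMD and 3, 12 and 3 in Bet+HMD, and passed against Con only without Bet+HMD replicate 2 (-1.50). Snord42b in Rpl23a had 4, 1 and 12 reads, then 0, 27 and 4, then 4, 5 and 3, so that 1 HMD library held most of its HMD reads. Gm26387 in Rpl5 had 12, 10 and 10 reads, then 2, 14 and 14, then 8, 17 and 9, and its means of 4.71 ± 0.300, 4.69 ± 3.32 and 4.89 ± 2.08 FPKM differed by less than the spread between libraries.

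By kind of host, against HMD, where 22.8% of all genes rose and 25.5% fell, 8 of 13 tested snoRNA genes in noncoding hosts rose (median log2 fold change 1.89), 19 of 33 in other protein-coding genes rose and 1 fell (median 1.46), 1 of 8 opposite to a gene rose (0.96), and 1 of 5 in no gene rose (-0.16). Without the 24 these became 5 of 10 in noncoding hosts and 5 of 17 with 1 lower in other protein-coding genes, so 14 of the 19 risers in the latter entered through Bet+HMD alone. The protein-coding hosts other than ribosomal protein genes went both ways, with 6 of 30 higher and 10 lower and a median of -0.12. By box, 11 of 30 genes with C and D boxes rose and 2 fell (median 1.37), 12 of 26 with an ACA box rose (1.18), and 6 of 14 with neither rose (1.48). Without the 24, 3 of 19, 6 of 18 and 3 of 9 rose.

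A tested host was present for 55 of the 71 genes, and 46 of these (83.6%) had an estimate above that of the host. In HMD against Con, where no gene was called, it was 22 of 29 (75.9%). The 74 were selected in part on their level in Bet+HMD. Of the 30 risers against HMD, 17 are among the 24 that reached 1 FPKM in Bet+HMD alone. Of the 28 risers with a tested host, 13 had a higher host, 8 a lower host and 7 a host not called. Over all genes tested 22.8% were higher and 25.5% lower. Neither the calls of the hosts nor the 46 of 55 were split by this selection. Across the 55 pairs the correlation of the log2 fold changes was 0.37 (Pearson's r) and 0.43 (Spearman's rho), as a description across genes that share 6 libraries and, in part, hosts. Among genes with enough reads to be named, Gm23600, DQ267102 and Gm25117 lay farthest above their hosts, with differences in log2 fold change of 3.88, 2.88 and 2.00, and Snord91a, Gm25129 and Gm22771 farthest below, with -1.20, -1.01 and -0.67.

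**Figure D4:**
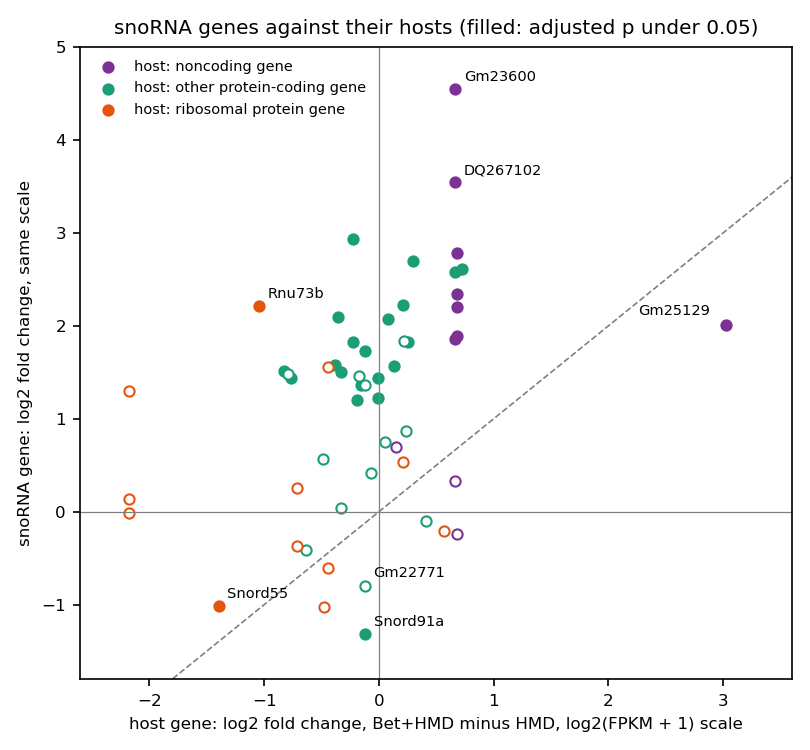
Log2 fold change of 55 snoRNA genes (y axis) against that of their host genes (x axis), Bet+HMD minus HMD, both on the log2(FPKM + 1) scale and coloured by kind of host. Filled circles passed an adjusted p of 0.05 and the dashed line marks equal change; 46 of the 55 circles lie above it, and those in ribosomal protein genes lie mostly left of 0.

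The listed noncoding snoRNA host genes did not move one way as a class. Of 18 listed, 17 were in the table and 15 tested, and against HMD 5 rose (33.3%, beside 22.8% of all genes) and 3 fell (20%, beside 25.5%), with a median log2 fold change of 0.18, while against Con 6 rose and 4 fell (40.0% and 26.7%, beside 19.4% and 20.4%), with a median of -0.06. Among the noncoding hosts that hold tested genes of the 74, 4 of 5 rose and 0 fell against HMD (median 0.68). Against Con 3 of 5 rose and 0 fell (median 0.68). Of the list, Meg3, an imprinted transcript beside Rian, rose most (3.96 against HMD, adjusted p = 1.04e-05). None of the 74 lies in Meg3, which is also among the nuclear-retained RNAs summed above, so the 2 sums are not separate. Rian, Snhg11, Snhg14 and Snhg17 rose too, each in both comparisons. Snhg6 (log2 fold change -1.50 against HMD, adjusted p = 0.00129), Snhg8 (-0.77, adjusted p = 0.0088) and Zfas1 (-0.78, adjusted p = 0.00239) fell in both. Gas5, a host of many C/D snoRNAs, did not pass (0.22, adjusted p = 0.212), and no snoRNA gene within it was among the 74. The summed level of the list ran from 122 to 172 FPKM in Con, 129 to 161 in HMD and 754 to 788 in Bet+HMD, and Snhg11 and Meg3 alone had means of 57.5, 63.5 and 679.6 FPKM together.

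The proteins that bind, assemble and process snoRNAs were tested as a further group of 31 genes in the table. None was called in HMD against Con by limma or voom, and 0 of 31 reached an unadjusted p under 0.05 in limma. Against HMD, 4 of 30 rose and 6 fell in Bet+HMD (median -0.05), and against Con 1 rose and 6 fell (median -0.17). These shares of 13.3% and 20%, then 3.33% and 20%, lie at or below those over all genes (22.8% and 25.5%, then 19.4% and 20.4%). With TPM in place of FPKM, which moves the median of all genes by 0.25 and 0.27, 9 of 12 called genes were higher against HMD and 4 of 7 against Con, and median centring left 2 of 7 higher against Con, so the direction of the group depends on the scaling.

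Of the 4 core proteins of box C/D particles, Nop56 rose from 9.94 ± 0.535 FPKM in HMD to 17.6 ± 0.515 FPKM (log2 fold change 0.76, SE 0.07, adjusted p = 0.000242), while Snu13, which binds the C/D motif first, fell from 30.8 ± 1.94 to 19.9 ± 2.08 FPKM (-0.61, SE 0.09, adjusted p = 0.0019) and Nop58 fell from 5.89 ± 0.872 to 4.17 ± 0.256 FPKM (-0.41, adjusted p = 0.0169). Fbl, the methyltransferase, did not pass (2.86 ± 1.01 and 3.38 ± 0.364 FPKM). Of the 4 core proteins of H/ACA particles, only Gar1 was called against HMD, rising by 1.00 (SE 0.23, adjusted p = 0.00952), and only Nop10 against Con, falling from 19.9 ± 7.71 to 9.09 ± 1.02 FPKM (adjusted p = 0.0165). Dkc1, the pseudouridine synthase, did not pass, with 5.10 ± 0.318 FPKM in HMD against 5.89 ± 0.504 FPKM after betaine.

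Among 13 tested assembly factors 3 fell against HMD, namely Nufip1, Pih1d1 and Znhit3, and 3 fell against Con, namely Coil, the scaffold protein of Cajal bodies, with Pih1d1 and Znhit3. Of 9 tested processing factors, the nuclear exonucleases Exosc10 (0.67, adjusted p = 0.00256) and Xrn2 (0.24, adjusted p = 0.0283) rose against HMD and the cap methylase Tgs1 fell (-0.38, adjusted p = 0.00947). Against Con, Exosc10 rose and Dbr1, which opens intron lariats, fell (-0.31, adjusted p = 0.045 in limma). By voom the fall of Dbr1 did not pass (adjusted p = 0.0684).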

How the data were processed

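Hippocampal RNA of 9 mice was sequenced. Per the methods of the paper on Con and HMD, ribosomal RNA was depleted and paired-end libraries were made with a stranded mRNA kit. How fully such libraries hold RNAs as short as snoRNAs was not measured. The submitters' processing notes name HISAT2 2.1.0, featureCounts 1.5.0-p3 and mm10. The authors deposited FPKM in 2 tables, an earlier one with Con and HMD and a later one with all 9 libraries, used here throughout. Gene lengths and positions were taken from the deposited tables. Columns headed COL were read as Con, which is inferred. FPKM times gene length times library size gave whole reads for 100% of values (tolerance 0.05), with library sizes 0.953 to 1.05 times the reads in the table. At this depth 3 reads, taken as the floor, were at most 1.87e-05% of a library.

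In the study, differential genes came from a tool for counts. Because FPKM was deposited, limma 3.58.1 (R 4.3.3; empirical Bayes with intensity trend, two-sided) modelled log2(FPKM + 1) in each pair of groups, for genes with a mean of at least 1 FPKM over the fit, with Benjamini-Hochberg adjustment over all genes tested. That scale understates fold changes of low genes. Counts by voom on the recovered reads stand beside those of limma. The labels do not say that replicates are separate litters or cages, so p-values measure the spread between these samples.

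The host is the shortest same-strand gene spanning the whole snoRNA gene. Members, lists and rules were chosen with earlier results of these data known. Genes were named if among the 12 of highest mean, if among the 6 largest rises or falls of a comparison (called, no overlap, at least 10 reads in each library of the higher group; else the 3 smallest p per direction), in a host with 3 or more, next to the threshold, a snoRNA with a well-known special role (none of those listed was among the 74 by name), or among the 3 farthest above or below the host. Lists cover snoRNP proteins and processing, noncoding hosts, nuclear-retained RNAs and cell markers. Alternatives are those of the closing section. A host gene is not reported here.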

Additional observations from a re-analysis of the deposited data

How the results depend on the processing

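In HMD against Con, no snoRNA gene and no snoRNP pathway gene was called under any of the 18 alternatives run, from leaving out each sample to the earlier table, although 9 other genes passed with all 3 groups in 1 fit. Calls among the 74 stayed within 1.5 times of 32 (against HMD) and 33 (against Con) except where a filter removed most of them. A minimum of 5 FPKM left 13 and 11 tested and 9 and 8 called, and a minimum of 10 mean reads left 11 and 10 tested and 8 and 8 called. Leaving out 1 library gave 24 to 35 calls against HMD and 28 to 39 against Con. The set itself had 44 genes when selected on the 6 Con and HMD libraries and 8 when a mean of 10 reads was required. Pathway calls ran from 7 to 13 against HMD and from 3 to 10 against Con when 1 library was left out; against Con they were 3, 4 and 3 without Bet+HMD replicate 1, 2 and 3, beside 7. With the replicate number as a block, snoRNA calls were 0, 35 and 37 and pathway calls 0, 8 and 5 in HMD against Con, Bet+HMD against HMD and Bet+HMD against Con. The labels tie the numbers to nothing shared. In HMD against Con the deviations of same-numbered samples correlated across genes at -0.05, 0.31 and 0.30 for numbers 1, 2 and 3, and in the comparisons with Bet+HMD between -0.185 and 0.0055, so not every pair passed 0.1 and the main results are unpaired. The block moved no count by over 1.5 times. The median log2 fold change of the 74 ran from 1.04 to 2.40 against HMD and from 1.01 to 2.81 against Con over the alternatives. Of 1022 values of named genes under alternatives, 0 reversed a call, 13 lost it and 9 gained it, among them Gm25658, lower against HMD with quantile normalization (-1.31), the block (-1.02) or without HMD replicate 1 (-1.50). A pseudocount of 0.1 raised the log2 fold changes of called low genes, for example from 2.08 to 3.425 for Gm25117 against HMD. Most of the 74 genes hold too few reads for a difference under several-fold to be detectable.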
